A study of Homo sapiens with 4 samples.

Results

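The genes described are 10 short-lived regulators: the transcription factors MYC, KLF2, KLF4, KLF6 and KLF10, the RNA-binding decay factors ZFP36, ZFP36L1 and ZFP36L2, and the cytokine signalling suppressors SOCS2 and SOCS3. Members were taken by their symbol in the deposited peak table. Of the 10 genes, 4 were listed, with 11 of the 27678 peaks in the table: MYC with 2 peaks, KLF2 with 4, KLF6 with 3 and ZFP36 with 2. No peak was listed for KLF4, KLF10, ZFP36L1, ZFP36L2, SOCS2 or SOCS3.

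The data were m6A-seq of cultured human breast cancer cells, with no treatment named in the labels, called MDA-MB-231Br (a line derived from MDA-MB-231 by selection for growth in brain) in the growth protocol and design, and plain MDA-MB-231 in another label. An antibody against N6-methyladenosine (m6A) was used to pull down sonicated poly(A) RNA (IP), which was sequenced beside input RNA from the same line. The labels give 2 IP and 2 input libraries and leave it unsaid whether separate cultures were used. The extraction protocol speaks of embryos, a conflict that the sources used here do not settle. The table gave 1 IP and 1 input read count for each peak, treated here as pooled over libraries, so there was no replicate value and no test between libraries was possible. Intervals are exact 95% Clopper-Pearson intervals and cover counting error only. Without library totals, which the sources used here do not give, a ratio of 1 is no baseline of zero enrichment, and each ratio can be read only against other peaks in the table.

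The 11 peaks held 2220 IP and 1826 input reads, counted anew where peaks overlapped, and the median peak of the whole table held 32 IP and 67 input reads. Of 6 genes known to be expressed in MDA-MB-231, among them VIM and CD44, all 6 had a listed peak. Of 6 genes known to be absent or low in it, GATA3 alone was listed, with 1 peak of 0 input reads. ESR1, PGR and CDH1 were not listed, which in a peak table does not measure their expression.

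m6A is laid down on nascent mRNA by a writer complex around METTL3 and METTL14, mostly within the consensus DRACH (where D excludes C, R stands for a purine and H excludes G), with GGAC a frequent core, and is bound by YTH-domain readers, some of which speed mRNA decay and some of which have been linked to translation. The mRNAs of early response genes are made in bursts and decay quickly. Many of them carry AU-rich elements in the 3' UTR, which ZFP36 (tristetraprolin) and its relatives ZFP36L1 and ZFP36L2 bind in order to recruit deadenylases. KLF proteins are zinc finger factors that bind GC-rich DNA. MYC, a basic helix-loop-helix factor, dimerises with MAX. SOCS proteins are induced by cytokines and restrain JAK kinases and their receptors.

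Short windows of the transcripts, read from GENCODE release 29 (GRCh38), show examples of the consensus sites in the listed peaks of KLF2, ZFP36 and KLF6. The GGAC core is in capitals where it occurs. In the KLF6 peak across the stop codon, which had no GGAC, the capitals mark other DRACH sites, the first of which also lies in the 60 nt shared with the coding peak upstream and the second in the 90 nt shared with the 3' UTR peak. The first 5 windows come from the peaks with the highest ratio of KLF2, ZFP36 and KLF6, and the next 2 from the KLF6 and KLF2 peaks poor in IP reads. The last comes from the 3' UTR of ZFP36, outside its listed peaks, and its capitals mark TATTTAT, the core of the AU-rich element that ZFP36 proteins bind. In the KLF2 window with both motifs, each is in capitals.
KLF2 coding, chr19:16325262-16325291, plus strand: tcaacagcgtgctGGACttcatcctgtcca
ZFP36 coding, chr19:39407779-39407808, plus strand: tccgaccatggagGGACtgagtccagccca
ZFP36 coding, chr19:39407811-39407840, plus strand: ctggggctcctcgGGACcctggagcctgag
KLF6 coding, chr10:3780149-3780178, minus strand: gaagtgatgagtTAACCaggcacttccgaa
KLF6 coding, chr10:3779558-3779587, minus strand: tttttccaggtcTGACCacctggccctgca
KLF6 3' UTR, chr10:3779314-3779343, minus strand: tgtgggtgaccctGGACtcgccactggtac
KLF2 3' UTR, chr19:16327104-16327133, plus strand: gtgactggTATTTATtGGACccagagaacc
ZFP36 3' UTR, chr19:39409188-39409217, plus strand: ccttTATTTATgacgacttTATTTATtcta

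MYC, on the plus strand of chromosome 8, had the highest ratio of the listed members in its first exon and a peak poor in IP reads directly after it. The first peak (127736069 to 127736623) held 722 IP and 96 input reads, a ratio of 7.52 (6.07 to 9.41). It covered nt 1 to 555 of transcript MYC-207, which is the whole of exon 1. Of those bases 525 are annotated as 5' UTR and 30 as coding sequence, because this transcript is annotated from the upstream CTG start codon. The second peak (127736579 to 127738752) shared 45 nt with the first, crossed into exon 2 and held 119 IP and 832 input reads (0.143, 0.117 to 0.174). The ratio was therefore above 1 at the 5' end and well below 1 in the coding sequence that follows.

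Both kinds of reads moved in opposite directions between these MYC peaks, which are nearly equal in length. Per 100 nt the first held 130 IP and 17.3 input reads, and the second 21.6 IP and 151 input reads. The conditional odds ratio of the reads was 52.4 (39.1 to 70.8), a description of a pair of peaks that overlap, which was allowed after the data had been seen. The 1306 nt after nt 1060 held no listed peak, although 5 of the 10 GGAC sites of the mRNA lie there. The MYC peaks held the other 5, 3 in the first and 2 in the second. Both MYC peaks were entered 2 times with the same reads, the second once as 5' UTR and once as coding sequence.

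**Figure D1:**
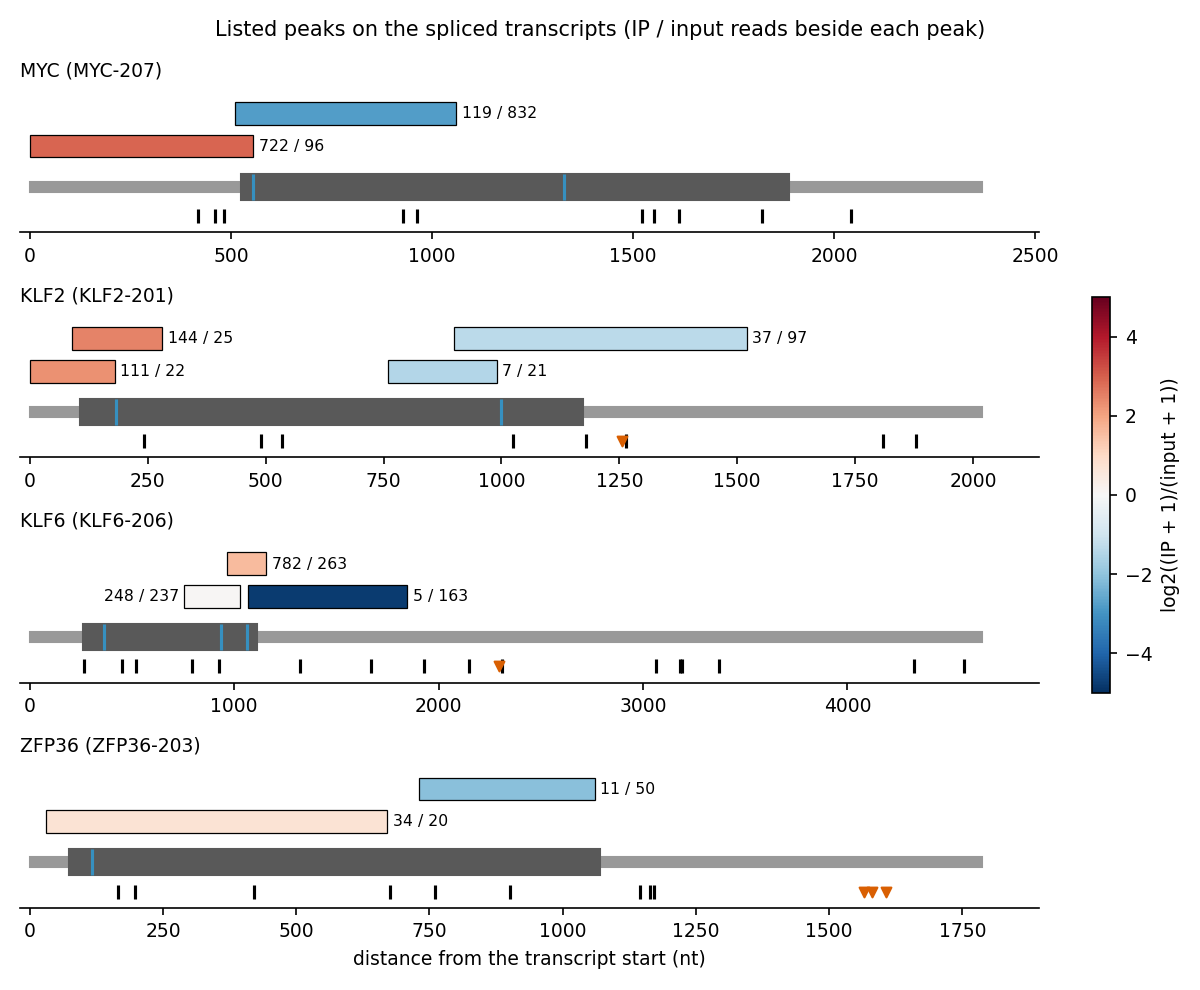
Listed peaks of MYC, KLF2, KLF6 and ZFP36 on their spliced transcripts, drawn to scale in nt from the transcript start, each panel with its own axis. Thin grey bars are UTRs, thick dark bars coding sequence, blue ticks exon junctions, black ticks below the bar the 4-base methylation core and orange triangles the AU-rich core; red boxes have more IP than input reads and blue boxes fewer (white near equal), with IP and input reads printed beside each box, from 722 and 96 in the first MYC peak to 5 and 163 in the last KLF6 peak.

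KLF2, a factor of quiescent endothelial and T cells, showed the same order along the transcript at lower depth. Its 4 peaks on the plus strand of chromosome 19 fell into a pair at the 5' end rich in IP reads and a pair further downstream poor in them. Of the downstream pair only the fourth peak reached the stop codon. The first (16324817 to 16324996, exon 1) held 111 IP and 22 input reads (5.05, 3.17 to 8.38), and the second (16324907 to 16325313, exons 1 and 2) 144 and 25 (5.76, 3.75 to 9.20). These share 90 nt, so part of their reads was counted in both. After a gap of 480 nt without a listed peak, the third (16325794 to 16326023, exon 2) held 7 IP and 21 input reads (0.333, 0.120 to 0.814). The fourth (16325934 to 16327376, exons 2 and 3) held 37 and 97 (0.381, 0.254 to 0.562) and reached 345 nt into the 3' UTR.

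The intervals of the KLF2 5' pair overlapped each other, as did those of the 3' pair, and those of the pairs did not overlap between them. The conditional odds ratio between the second and the third peak, which share no bases, was 16.9 (6.15 to 52.3). Here and in the other members the pair was picked by its values, as the largest difference among the pairs allowed. These odds ratios therefore describe the spread within a gene and are not tests. Input density differed little along KLF2, from 9.13 to 15.6 reads per 100 nt, while IP density was 61.7 and 75.8 in the 5' pair and 3.04 and 5.97 in the 3' pair. The only GGAC of the 5' pair is the coding site printed above. The fourth peak, poor in IP reads, held 3 GGAC sites, 1 of them separated by 1 base from the single TATTTAT of the KLF2 3' UTR.

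KLF6, a factor induced by wounding and growth signals, was the one listed member on the minus strand, on chromosome 10. Its highest ratio lay in a peak that spans the stop codon, called the stop codon peak here. That peak (3779496 to 3780200, exons 3 and 4 of KLF6-206) held 782 IP and 263 input reads (2.97, 2.58 to 3.43). It comprised 144 coding nt, the stop codon and 43 nt of the 3' UTR. Upstream of it a coding peak (3780141 to 3781821, exons 2 and 3) held 248 and 237 reads (1.05, 0.872 to 1.26). Downstream, a peak of 780 nt mainly in the 3' UTR (3778806 to 3779585, exon 4) held 5 IP and 163 input reads (0.0307, 0.00983 to 0.0731), the lowest ratio of all 11 peaks. This last peak also contains the stop codon, in the 90 nt that it shares with the stop codon peak. If both were counted alike, at most 5 of the 782 IP reads touched the shared bases. How reads were counted in overlapping peaks is not given in the sources used here.

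The ratio in KLF6 thus went from near 1 to its maximum and then to its minimum within nt 757 to 1846 of a transcript of 4656 nt. Neighbouring peaks shared 60 and 90 nt, and none of the 3 intervals overlapped another. Between the first and the last peak, which share no bases, the conditional odds ratio was 34.0 (13.9 to 107.9). With overlapping pairs allowed, as for MYC, it was 96.6 (39.9 to 304.8) between the stop codon peak and the last. The stop codon peak had the highest IP density of the 11 peaks, 412 reads per 100 nt beside 138 input reads. The stop codon peak held 0 GGAC and 3 DRACH sites, 2 of which are printed above, whereas the 3' UTR peak with 5 IP reads held 2 GGAC and 13 DRACH sites. No peak was listed on the 5' UTR of KLF6 or on the last 2810 nt of its transcript.

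ZFP36, which binds AU-rich elements and is itself an early response gene, had the fewest reads. Its first peak (chromosome 19, 39406843 to 39408296, plus strand) joined exons 1 and 2 over 640 nt, of which 44 are 5' UTR and 596 coding, and held 34 IP and 20 input reads (1.70, 0.951 to 3.12). The second (39408357 to 39408686), all coding, held 11 and 50 (0.220, 0.103 to 0.428). The intervals of the ZFP36 peaks did not overlap, and the conditional odds ratio was 7.57 (3.05 to 20.1). The interval of the first includes 1, so at this depth it could not be told whether IP reads exceeded input reads there. The difference lay mostly in input, at 3.13 and 15.2 reads per 100 nt, beside 5.31 and 3.33 IP reads. The GGAC core occurred 3 times in the first peak and 2 times in the second.

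**Figure D2:**
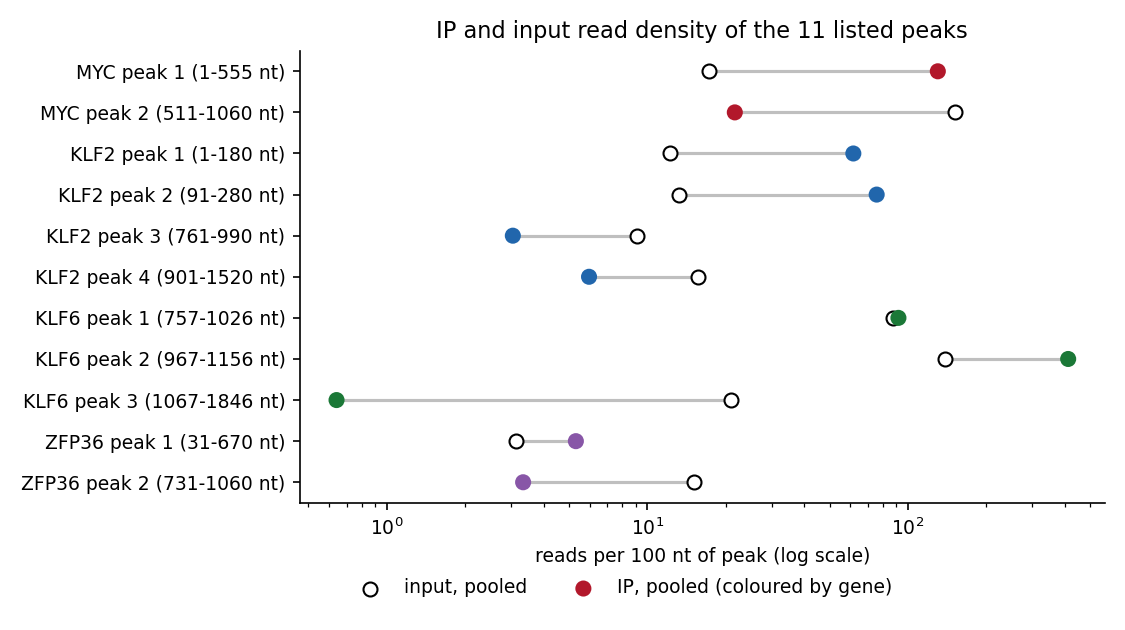
IP reads (filled, coloured by gene) and input reads (open) per 100 nt of each of the 11 peaks on a log axis, with the peak's nt range on the transcript; values are pooled counts with no replicate spread. The order of filled and open points turns between the 5'-most and the 3'-most peak of each gene. Counting error covers both orders in the first peaks of KLF6 and ZFP36. The KLF6 stop codon peak has the highest IP density, 412.

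In every listed member the 5'-most peak had a higher ratio than the 3'-most. The difference in log2((IP + 1)/(input + 1)) was 5.69 in MYC, 4.84 in KLF6, 3.65 in KLF2 and 2.82 in ZFP36. This order was also usual in the table: among 5316 genes with at least 2 peaks on 1 transcript, 71.5% had it, with a median difference of 1.32 (interquartile range -0.17 to 3.89). It depended on strand, at 83.7% in plus-strand and 49.7% in minus-strand genes. The 3 plus-strand members thus followed the prevailing order of their strand, and KLF6 lay on the strand where both orders were about equally frequent. A difference at least as large as that of MYC was present in 577 genes.

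Base composition moves with the ratio in this table, so each peak was set beside the listed peaks of the same region (by midpoint) and the same decile of GC content, whose medians are given with the pseudocount of 1. The KLF2 5' peaks, with 76.1% and 71.6% GC, lay at the middle of theirs, both of which had a median ratio of 5.5. The first MYC peak (64.5% GC) lay above its group of 660 peaks, whose median was 2.28 (interquartile range 0.892 to 5.42), and 84.7% of them were lower. The KLF6 stop codon peak (54.7% GC) lay further up, above 90.1% of 2181 coding peaks with a median of 0.408 (0.159 to 1.27). The first ZFP36 peak was near its group's median of 1.91. For some peaks the deposited class differed from the region by midpoint. It was 3' UTR for the KLF6 stop codon peak and 5' UTR for the second KLF2 and the first ZFP36 peak. For the fourth KLF2 peak, 3' UTR by midpoint, it was coding sequence. Ranks by deposited class are not given here.

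On the low side, the second MYC peak exceeded 5.05% of its group of 2018 coding peaks (median 1.08), the third peak of KLF2 3.78% of 1218 (median 5.5) and the second ZFP36 peak 6.67% of 1844 (median 1.91). The KLF6 3' UTR peak exceeded 6.64% of 527 peaks (median 0.333). The fourth KLF2 peak, at 27.1% of 317, was within the interquartile range of its group. These are ranks within 1 pooled table, and listed peaks often overlap.

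**Figure D3:**
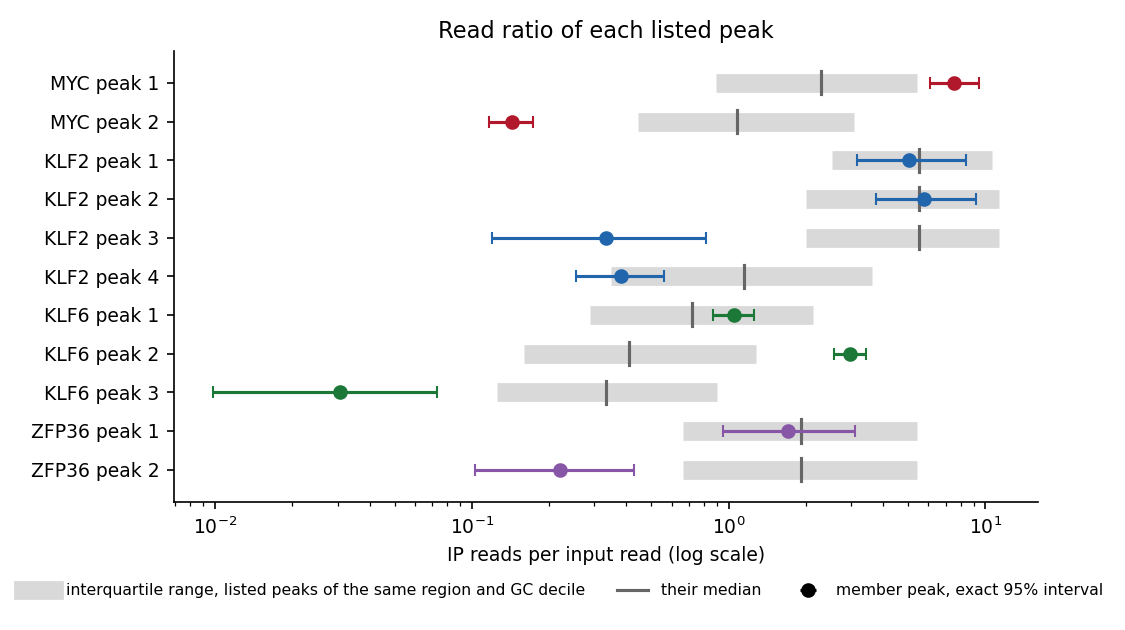
IP reads per input read of each peak (points, log axis) with exact 95% intervals for counting error, over the interquartile range (grey bar) and median (dark line) of the listed peaks of the same region and GC decile. The first MYC peak at 7.52 and the KLF6 stop codon peak at 2.97 lie above the grey bars, the KLF2 5' peaks inside them, and the second peak of MYC, the third of KLF2, the last of KLF6 and the second of ZFP36 below them.

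Counted together, 6 of the 11 member peaks (54.5%) had more IP than input reads, beside 40.5% of all listed peaks. At least 4 IP reads per input read stood in 3 member peaks, the first of MYC and the 5' pair of KLF2, beside 17.2% of all peaks. At least 4 input reads per IP read stood in another 3, the second of MYC, the last of KLF6 and the second of ZFP36, beside 30.3%. The median log2 ratio was 0.07 over the member peaks and -0.63 over all peaks. Keeping the peak with most reads of each set of overlapping peaks left 6 member peaks, of which 3 had more IP than input reads (44.2% of all such peaks) and 1 had a ratio of 4 or more (19.3%), with a median of -0.31 beside -0.36 over all genes. By the window score of the authors' deposited table, as deposited, the member median of 3.50 was just below the 3.58 of all peaks with a finite score. With 11 overlapping peaks in 4 genes these shares are a description and do not distinguish the members from the rest.

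By its highest peak, MYC was at rank 1707 of the 7269 genes with a listed peak, KLF2 at 2297, KLF6 at 3570 and ZFP36 at 4596. The rank of MYC rests on its first peak: with 1 peak per set of overlapping peaks the second is kept alone, its highest log2 ratio turns to -2.80, and the number of members that reach a ratio of 4 falls from 2 to 1. All 4 had a peak with more IP than input reads, as had 73.8% of genes with a peak, and 2 of the 4 reached 4 IP reads per input read, as did 43.5% of such genes. The median of the highest log2 ratio was 2.02 over the 4 members and 1.51 over all genes. The intervals of the highest ratio overlapped between MYC and KLF2 and between KLF6 and ZFP36, and that of KLF6 lay below those of MYC and KLF2.

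**Figure D4:**
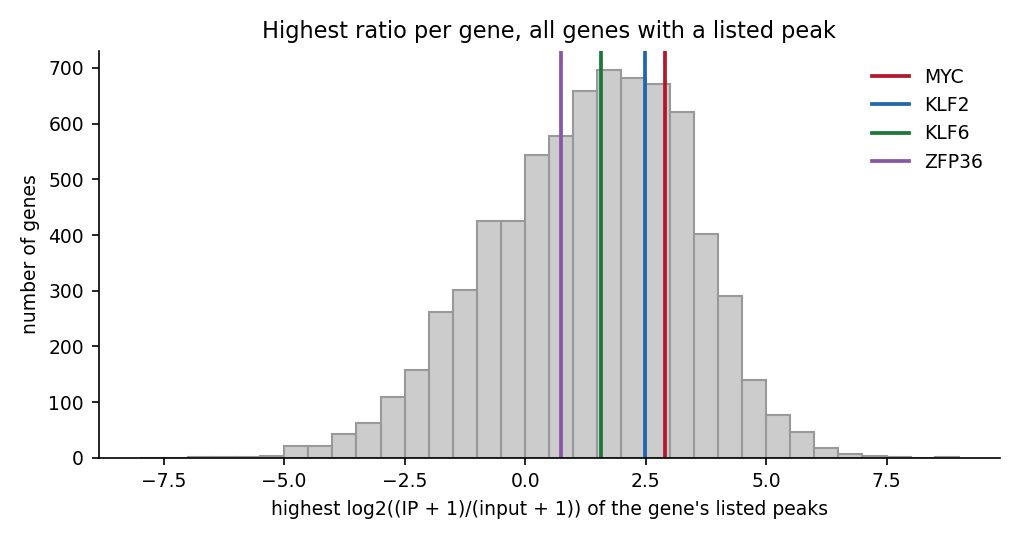
Number of genes (grey bars) by the highest log2((IP + 1)/(input + 1)) among their listed peaks, over all 7269 genes, with the 4 listed members as coloured lines. ZFP36 at 0.74 lies below the median of 1.51, KLF6 at 1.57 close to it, and KLF2 at 2.48 and MYC at 2.90 above it.

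Of the 10 regulators 4 (40%) were listed, beside 36.4% of protein-coding genes, so having a peak was about as frequent as in the rest of the genome. The listed and unlisted members differed in strand: 3 of 4 plus-strand members were listed and 1 of 6 on the minus strand, beside 42.7% of all protein-coding genes on the plus strand and 30.1% on the minus. SOCS2, a feedback inhibitor of growth hormone signalling, was the unlisted plus-strand gene. KLF4, a pluripotency factor, KLF10, a factor induced by TGF-beta, ZFP36L1, ZFP36L2 and SOCS3, the feedback inhibitor of gp130 cytokine receptors, lie on the minus strand. Whether strand had a part in which members were listed was not tested.

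The unlisted members were not the shorter ones. Their annotated transcripts ran from 2734 nt in SOCS3 to 3696 nt in ZFP36L2, all in the length quartile of protein-coding genes from 2694 to 4354 nt, where 42.6% of genes had a peak. MYC (2366 nt), KLF2 (2018 nt) and ZFP36 (1786 nt) fell in the next shorter quartile, where 30.2% had one, and KLF6 in the longest, where 56.8% had. GGAC was most frequent in an unlisted member, SOCS3, with 22 sites (0.805 per 100 nt), and least frequent in another, KLF10, with 3 (0.0969). Listed members ranged from 0.344 per 100 nt in KLF6 to 0.504 in ZFP36. An unlisted gene may be weakly expressed, unmethylated or below the authors' thresholds, and the table does not tell these apart.

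Within the member peaks GGAC stood at 0.397 per 100 nt (18 sites, shared stretches counted in each peak), below the 0.545 of all listed peaks, and DRACH at 1.37 against 1.85. At least 1 GGAC was present in 8 of the 11 member peaks and in 63.3% of all listed peaks with a sequence. Member peaks with more IP than input reads held 0.444 GGAC per 100 nt and the others 0.359, beside 0.640 and 0.469 over all listed peaks. At 9 sites in each kind of member peak, counting error is larger than that difference.

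AU-rich elements, through which ZFP36 proteins act, were counted in the 3' UTRs of all 10 members. TATTTAT was searched on the transcribed strand and can overlap copies of itself and always contains ATTTA. It was present in the 3' UTR of 7 of the 10 members, beside 27.6% of the 3' UTRs of protein-coding genes. The 3' UTRs of these 7 ran from 713 nt in ZFP36 to 3543 nt in KLF6, beside a median of 816 nt over protein-coding genes. The shares were not adjusted for length. ZFP36, ZFP36L1 and ZFP36L2 had 3 copies each, SOCS2 and SOCS3 had 2 each, and KLF2 and KLF6 had 1 each, while MYC, KLF4 and KLF10 had 0. At least 3 copies were present in 4.97% of all 3' UTRs. The density was highest in ZFP36, at 4.21 per kb, against 0.327 per kb overall. KLF6, at 0.282 per kb, lay below the overall value, and the other members with a copy ran from 1.19 to 1.60 per kb. MYC held 4 copies of the shorter ATTTA in a 3' UTR of 476 nt. Of the 5 copies in the 4 listed members, 1, that of KLF2, fell within a listed peak, and listed peaks covered 1078 of the 5575 nt (19.3%) of these 3' UTRs. No listed peak touched the 3' UTR of MYC or ZFP36. A match is a description of the letters and does not show binding.

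Among relatives and partners of the 10 regulators, genes with a listed peak were 8 of 17 in the KLF family (47.1%) and 3 of 9 in the related SP family (33.3%). In the SOCS family they were 3 of 8 (37.5%). The share over all protein-coding genes was 36.4%. KLF13 and KLF5, a factor of proliferating epithelium, both peaked at 16 IP and 0 input reads, with an exact lower limit of 3.86 on the ratio, beside a lower limit of 3.75 for KLF2. KLF3, KLF7 and KLF11 had no peak with more IP than input reads. In the SP family SP5, a Wnt target, had a peak of 161 IP and 0 input reads (exact lower limit 43.1), SP4 one of 8 and 0 (exact lower limit 1.71), and SP1 reached 25 and 25 (1, 0.551 to 1.81). In the SOCS family the listed genes were SOCS4 with 127 and 26 reads (4.88, 3.18 to 7.76), SOCS6 with 30 and 6 (5, 2.05 to 14.7) and SOCS5 with 71 and 45 (1.58, 1.07 to 2.35), none of them the cytokine-induced CISH, SOCS1, SOCS2 or SOCS3.

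In the MYC network 4 of 13 genes (30.8%) were listed, beside 36.4% of protein-coding genes. The MAX partner MXD1, which opposes MYC, had 265 IP and 29 input reads (9.14, 6.22 to 13.9), an interval that overlapped that of MYC, and MLX had 1341 and 205 (6.54, 5.64 to 7.61). MAX, MYCN and MYCL were not listed. Of JAKs and STATs, 5 of 11 (45.5%) were listed, led by STAT5A with 136 and 17 reads (8, 4.82 to 14.1). STAT3, which gp130 receptors activate, was not among them.

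Of 11 genes for binders of AU-rich or other 3' UTR elements, 8 were listed, beside 36.4% of protein-coding genes. A peak with more IP than input reads was present in 3 of the 8, beside 73.8% of genes with a listed peak. The endonuclease ZC3H12A (regnase-1) had 214 IP and 21 input reads (10.2, 6.50 to 16.8), RC3H1 (roquin) 7 and 1 (7, 0.899 to 315), and ZFP36 followed. Of 22 deadenylation and decay factors, 13 were listed and 6 had such a peak, led by the CCR4-NOT subunits CNOT11 with 89 and 4 (22.25, 8.39 to 83.4), CNOT10 with 364 and 63 (5.78, 4.41 to 7.68) and CNOT8 with 59 and 10 (5.9, 2.99 to 12.9). CNOT1, the scaffold that ZFP36 contacts, had 115 and 118 (0.975, 0.747 to 1.27).

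Of 22 other early response genes 11 (50%) were listed, beside 36.4% of protein-coding genes. Of the 11, 8 had a peak of more IP than input reads, a share close to the 73.8% of all genes with a listed peak. IER5L had 1062 IP and 21 input reads (50.6, 32.9 to 82.0), and the kinase genes PIM3 and PIM1 had 23 and 0 (exact lower limit 5.75) and 81 and 4 (20.25, 7.61 to 76.1). The interval of MYC overlapped that of PIM1 and lay below that of IER5L. IER2, IER3, SGK1 and ID1, ID2 and ID3 had no listed peak.

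**Figure D5:**
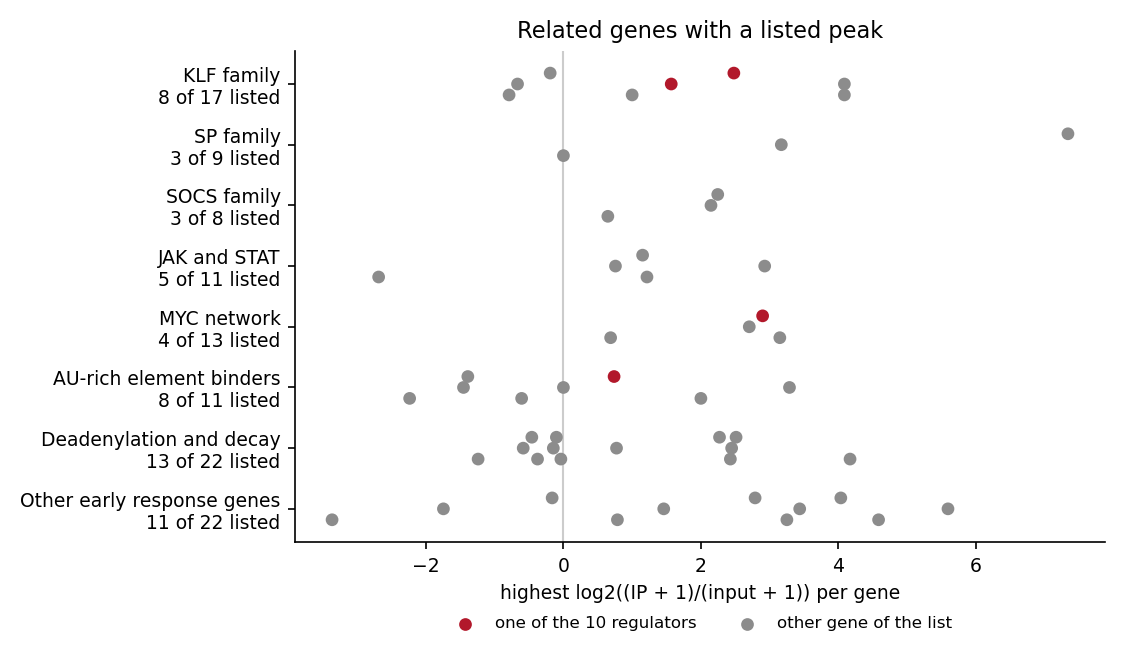
Highest log2((IP + 1)/(input + 1)) of each gene with a listed peak in 8 lists of relatives and partners, with members of the 10 regulators in red; genes with 0 input reads are placed by the pseudocount of 1. Red points, KLF2, KLF6, MYC and ZFP36, lie inside the range of the other listed genes of their lists, and the number listed of each list stands under its name. The list named for AU-rich element binders also holds binders of other 3' UTR elements.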

How the data were processed

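Per the labels, poly(A) RNA was sonicated, immunoprecipitated with an m6A antibody and made into stranded libraries, beside input. HISAT2, HOMER and GRCh38/hg38 are named without role or version, per the submitters' processing notes. Peak calling, pooling and whether counting used strand are not given in the sources used here. The deposited table holds, per the file headers, whole-number read counts (1 IP, 1 input), the authors' p-value and FDR and a window score. The authors' thresholds decide what is listed: every peak had at least 5 IP reads.

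Of 27855 entries, 177 repeated a gene and its coordinates, which left 27678 peaks. Symbols were matched to GENCODE release 29, which left 3 peaks without a gene. Both ends of 27514 peaks lay in exons of 1 transcript, preferring spliced lengths that are a multiple of 10 nt (98.7%). Ratios are IP over input, with exact 95% intervals (SciPy 1.17.1), checked on simulated reads. The log2 scale uses a pseudocount of 1. No other annotated gene overlapped the member peaks. Members, lists and choices were made with earlier results of these data known, and every member peak is given. In related lists, the up to 3 highest genes were named by rule, and the genes named as without a peak or without excess IP reads, with CNOT1, were chosen after their values were seen.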

Additional observations from a re-analysis of the deposited data

How the results depend on the processing

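No paired analysis was possible because the table holds 1 pooled value of each kind, so neither a replicate block nor leaving out a replicate could be run. Keeping only peaks with at least 20 reads, or with an FDR of at most 0.05, removed no member peak, since the smallest held 28 reads and the highest FDR was 0.00854, so these alternatives say nothing of stability. Pseudocounts of 0.5 and 5 kept the members' highest ratios within the counting intervals. With these pseudocounts the median log2 ratio of the member peaks was 0.07 and 0.06, and the median of the highest log2 ratios 2.04 and 1.93. Taking 1 peak, that with most reads, per set of overlapping peaks left 6 member peaks, 3 of them with IP above input and 1 with a ratio of 4 or more, 1 member reaching that ratio and a median log2 ratio of -0.31. For MYC this choice keeps the second peak alone, and its highest log2 ratio turns to -2.80. With the window score of the authors' deposited table as the measure the median over the member peaks was 1.81 on the log2 scale, a different quantity. Allowing overlapping pairs, an alternative chosen after seeing that both MYC peaks overlap, gave MYC its only value, 52.4, left KLF2 and ZFP36 at the same pairs, and gave KLF6 a conditional odds ratio of 96.6, within the interval of the reported pair. Low depth leaves wide intervals where few reads were counted, as in the last KLF6 peak with 5 IP reads and the third KLF2 peak with 28 reads in all.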

Other observations

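The window score of the authors' deposited table ordered the member peaks differently from the reads. The first MYC peak, first of 11 by read ratio, had a score of 2.51 and was ninth by score, while the KLF6 coding peak, with a ratio of 1.05, had the highest score, 8.62. In the same deposited table the p-value was 0 for the second MYC peak, with 119 IP and 832 input reads, and 2.22e-26 for the first, while the deposited FDR ran the other way, at 1.7e-41 and 9.04e-195. Over the whole table, 94 of the 219 peaks with a deposited p-value of 0 did not have more IP than input reads.

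The first peaks of MYC and KLF2 began at nt 1 of an annotated transcript, MYC-207 and KLF2-201. Of all placed peaks 5.86% did so, 8.57% in plus-strand genes but 0.743% in minus-strand ones.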
